A study of Bos taurus with 15 samples.

Results

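The genes described here are 5 cathelicidins (CATHL1, CATHL2, CATHL3, CATHL5 and CATHL6), the calcium-binding proteins S100A8, S100A9 and S100A12, and lactoferrin (LTF), all known from the granules or cytosol of granulocytes. They were looked up in the array annotation by accession or gene identifier, and all 9 were found, each with 1 probe printed as 2 spots, out of 15888 named genes and 21475 probes. The set was selected on the measured values: it was chosen by the spread of CATHL1 between the animals, which is among the widest of all genes, so that spread is a description and carries no test. The probe for CATHL3 is called CAMP in the array annotation, and its accession belongs to CATHL3 today. The symbol CAMP now stands for another cathelicidin gene, whose probe the array calls CATHL7.

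Transcripts of biceps brachii, a muscle of the forelimb, were measured in 15 cattle with single-colour Agilent arrays of bovine oligonucleotide probes, each animal having its own array. In the prednisolone group, 8 animals (numbered P25 to P32 here) received prednisolone, a synthetic glucocorticoid, at 30 mg per head daily by mouth for 35 days. The control group held 7 animals (C17, C18 and C20 to C24). The labels call the animals cows and give no strain or age. Muscle came from the slaughterhouse in both groups. RNA of the prednisolone animals was extracted with TRIzol and a MinElute cleanup, and RNA of the controls with the RNeasy Mini kit, so extraction and treatment cannot be told apart. The treatment text attached to the control samples speaks of Finaplix and Revalor exposure and of dexamethasone, while each of these samples is itself labelled a control. Whether any control animal received one of these agents is not stated.

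Cathelicidins are made as inactive precursors during granulocyte maturation in the bone marrow, stored in granules, and cut into antimicrobial peptides after release. S100A8 and S100A9 pair to form calprotectin, which withholds zinc and manganese from microbes and makes up much of the cytosolic protein of neutrophils, and S100A12 is a related pro-inflammatory protein. Lactoferrin withholds iron and is stored in the secondary granules of neutrophils, but glandular epithelia make it as well. Muscle fibres are not known as a main source of these proteins, and skeletal muscle RNA carries that of the blood and other cells in the sample.

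Muscle fibre markers showed the labelled tissue on every array: all 10 measured of 12 were well above background on all 8 prednisolone arrays, and their mean log2 intensity per array lay between 16.06 and 16.82 in prednisolone animals and between 16.11 and 16.81 in controls. Transcripts of other organs were present on some arrays as well. The mean of 8 spermatid genes reached 10.58 on P31 and 11.26 on C20, and the mean of 9 measured thymocyte genes reached 8.33 on P30, 7.82 on P32, 9.47 on C17 and 6.96 on C20. The mean of 10 hepatocyte genes was at 8.31 on P26 and 7.99 on P28, and at most 4.92 in the other prednisolone animals and 5.52 in controls. The differences of the 9 genes, the arrays they share and their likeness to other genes are given with and without C17, C20 and P31, and the differences also with each animal left out in turn. In RNA of whole tissue, fewer cells of a type and less RNA per cell cannot be told apart.

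CATHL1, whose precursor yields a cyclic dodecapeptide that kills bacteria, had log2 intensities of 9.95 on P27, 10.15 on P30, 10.79 on P32 and 6.37 on P28, and of 4.51, 2.87, 1.58 and 1.43 on P31, P25, P26 and P29. Among controls it was at 10.87 on C17 and 8.56 on C20, and between 2.66 and 4.92 on the other 5. The arrays thus fell into a high set of 5, with 3 prednisolone and 2 control animals, and a lower set of 10 in which P28 stood highest. The gap between the lowest of the high set and P28 was 2.19 on the log2 scale. CATHL1 was well above background on P27, P28, P30, P31 and P32, and not on P25, P26 and P29, where its value has no firm level. Between the prednisolone arrays on which it was well above background, CATHL1 spanned 6.29 on the log2 scale. Its SD over the 15 animals, 3.40, was larger than that of 99.9% of the 14324 probes with a value on every array, whose median SD was 0.37.

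The spread between animals was larger than that between spots of 1 array. On the 5 high arrays the 2 spots of CATHL1 differed by at most 0.17 on the log2 scale. Among the prednisolone arrays where the probe was well above background, the 2 spots differed by at most 0.62 for CATHL1, 0.41 for CATHL2, 0.19 for CATHL3, 0.60 for CATHL6, 0.48 for S100A8, 0.43 for S100A9, 0.17 for S100A12 and 0.21 for LTF. CATHL5 was the exception, with spots at 6.99 and 8.42 on P27, a difference of 1.42. Arrays of 1 slide also differed. P27 and P28 shared a slide, as did P29 and P30, and CATHL1 was 3.58 higher on P27 than on P28 and at least 6.54 higher on P30 than on P29, where it was not well above background and the lowest signal that was is taken instead. The slides of the controls were not used here.

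**Figure D1:**
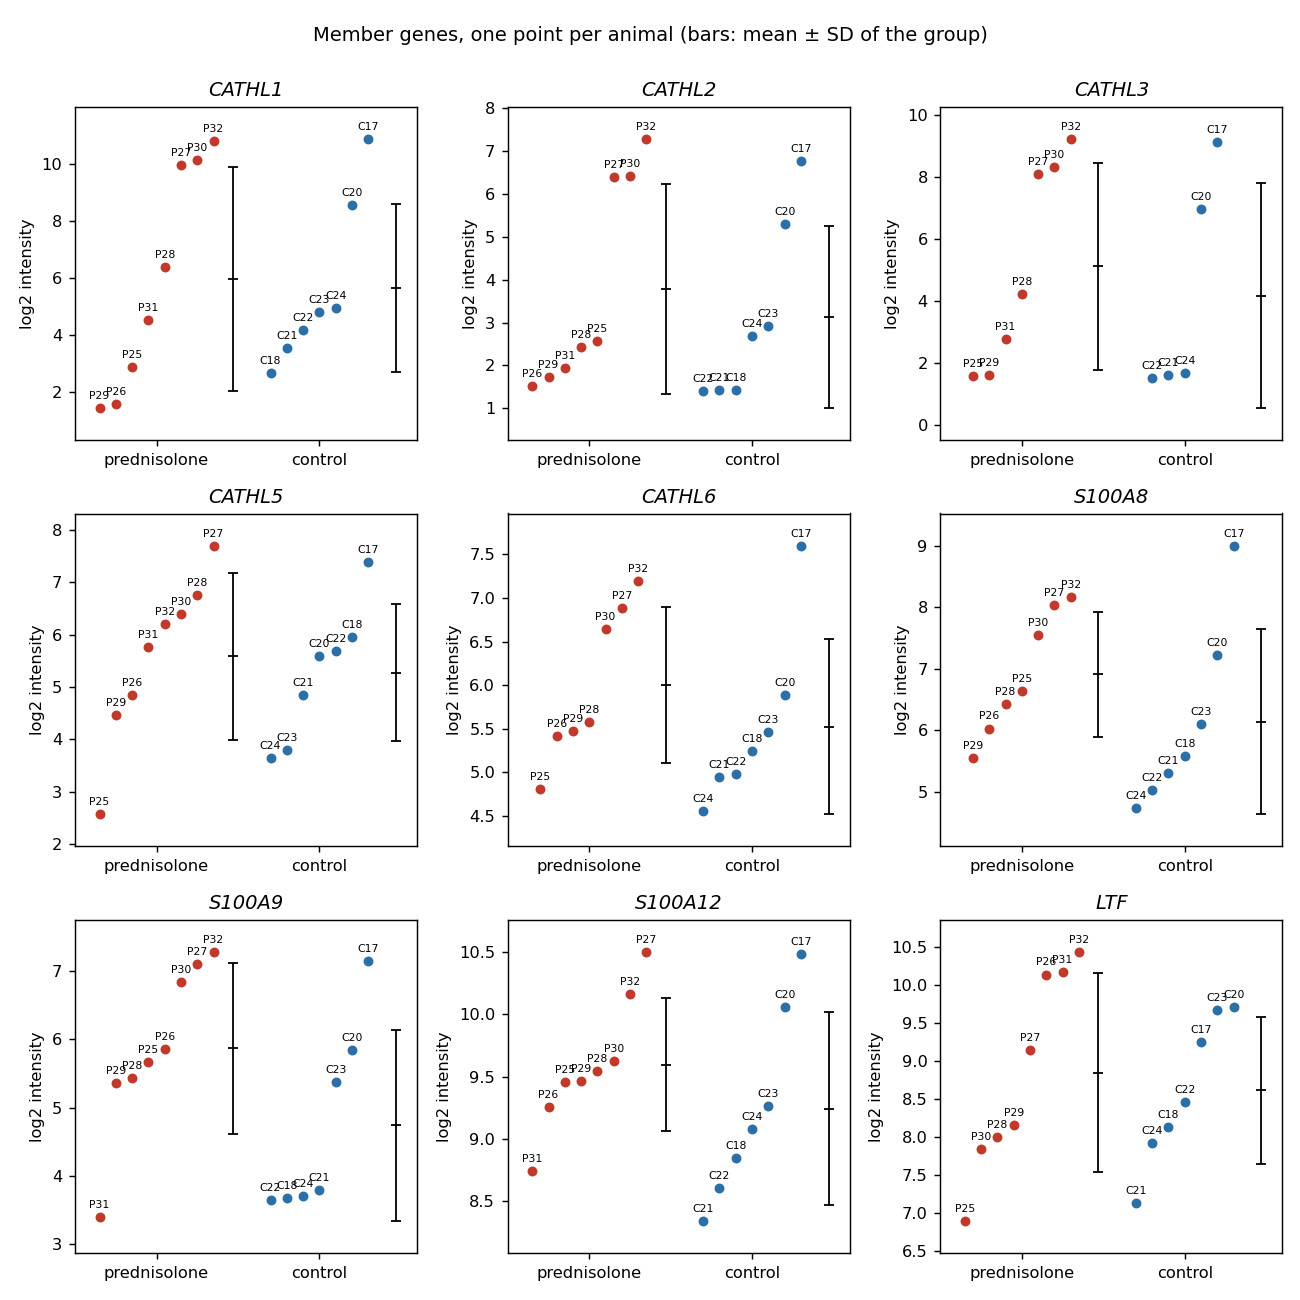
Log2 intensity of each of the 9 genes, 1 point per animal, for prednisolone animals (red, left) and controls (blue, right), with bars for the mean ± SD of each group; vertical scales differ between panels. For CATHL1, CATHL2 and CATHL3 the arrays P27, P30, P32, C17 and C20 stand apart from the rest, and the groups overlap for every gene.

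CATHL2 and CATHL3 encode the precursors of bactenecin 5 and bactenecin 7, proline-rich peptides that act inside bacteria. CATHL2 was at 1.52 at the lowest, 2.51 at the median and 7.27 at the highest in prednisolone animals, against 1.41, 2.68 and 6.76 in controls. It was well above background on P27, P30 and P32 and on no other prednisolone array. CATHL3 was at 1.56, 4.24 and 9.23 in the 7 prednisolone animals with a value, against 1.497, 1.66 and 9.13 in the 5 controls with a value. It too was well above background on P27, P30 and P32 alone among the prednisolone arrays. For both genes the 5 highest arrays were those of CATHL1.

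CATHL6 and CATHL5 encode the alpha-helical peptides BMAP-27 and BMAP-28. CATHL6 was at 4.82, 5.58 and 7.19 in 7 prednisolone animals (lowest, median and highest), against 4.56, 5.25 and 7.60 in controls, and was well above background on all 8 prednisolone arrays. Its 5 highest arrays were again those of CATHL1, but the gap below them was 0.30, and C20, at 5.88, lay close to P28, at 5.58. CATHL5 was at 2.57, 5.98 and 7.70 in prednisolone animals, against 3.64, 5.60 and 7.39 in controls. It was highest on P27 and C17, and P28, at 6.76, lay above P30 and P32, at 6.39 and 6.21, while C20, at 5.60, was the median of the controls. CATHL5 thus shared 4 of its 5 highest arrays with CATHL1 and the lowest of its 5 highest arrays lay 0.25 above the next, against 2.19 for CATHL1. The cathelicidins are close paralogs, and the part that signal from one gene may have in the probe of another was not tested.

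S100A8 was at 5.55, 6.64 and 8.16 in 7 prednisolone animals (lowest, median and highest), against 4.74, 5.59 and 8.998 in controls. S100A12 was at 8.75, 9.51 and 10.50 in prednisolone animals, against 8.34, 9.08 and 10.48 in controls. Both had the same 5 highest arrays as CATHL1, and both were well above background on all 8 prednisolone arrays. For S100A12 the gap below these 5 arrays was only 0.081, with P30 at 9.63 and P28 at 9.55.

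S100A9 was at 7.10, 6.84 and 7.28 on P27, P30 and P32, at 5.67, 5.86, 5.43 and 5.35 on P25, P26, P28 and P29, and at 3.39 on P31. Among controls it was at 7.15 on C17, 5.85 on C20 and 5.38 on C23, and between 3.65 and 3.79 on C18, C21, C22 and C24. The 7 prednisolone animals other than P31 therefore lay above 4 of the 7 controls. S100A9 was well above background on all prednisolone arrays other than P31. Its 5 highest arrays held 4 of those of CATHL1, with P26 in place of C20 by a margin of 0.009.

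LTF followed another order. It was at 6.90, 8.65 and 10.43 in prednisolone animals (lowest, median and highest), against 7.13, 8.46 and 9.72 in controls, and was well above background on all 8 prednisolone arrays. The highest arrays were P32, P31, P26, C20 and C23, of which P32 and C20 were also high for CATHL1. On P30, where CATHL1 was at 10.15, LTF was at 7.84, below its median in either group. On P25 and P26, which shared a slide, LTF was at 6.90 and 10.14.

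**Figure D2:**
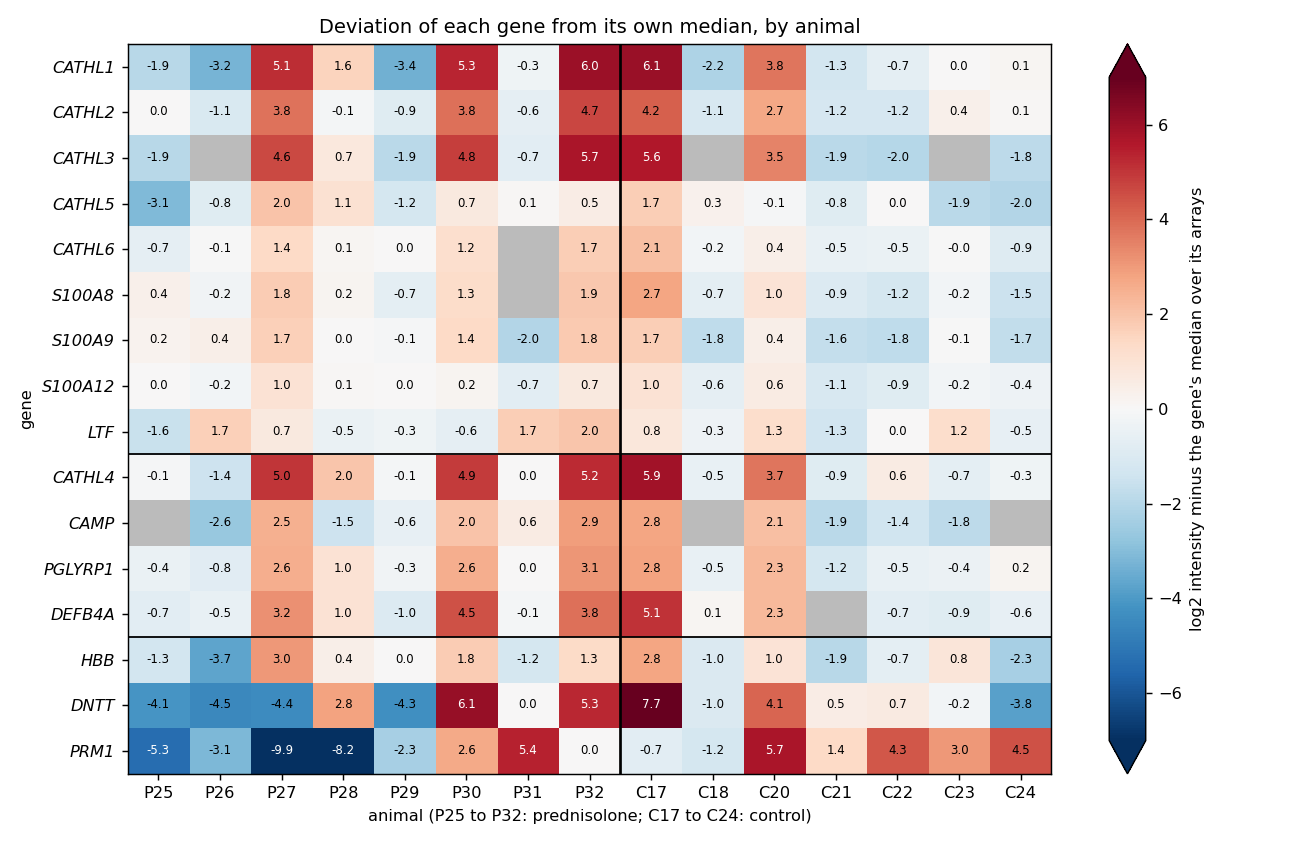
Log2 intensity of each gene minus its own median over its arrays, by animal (prednisolone left of the vertical line, controls right), with grey for cells without a value; colours stop at 7 in either direction and the numbers give the full value. The 9 described genes are on top, then CATHL4, CAMP, PGLYRP1 and DEFB4A, then beta-globin (HBB), the thymocyte gene DNTT and the spermatid gene PRM1; CATHL1 to CATHL3 are far above their medians on P27, P30, P32, C17 and C20, and DNTT is not on P27.

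Of the other 8 genes, 5 (CATHL2, CATHL3, CATHL6, S100A8 and S100A12) had exactly the 5 highest arrays of CATHL1. Among the 20893 other probes tested, 0.124% had these 5 highest arrays and 2.33% shared at least 4 of them. Without C17, C20 and P31, the 3 highest arrays of CATHL1 were P27, P30 and P32, and 6 of the other 8 genes, S100A9 among them and CATHL5 and LTF not, had these 3 highest arrays, as had 0.45% of the other probes. The set of 24 named genes with these 5 arrays also held CATHL4 and CAMP, the only other cathelicidins measured, as well as PGLYRP1, DEFB4A, TCN1, HBB and PTCRA. PGLYRP1 is a peptidoglycan recognition protein of neutrophil granules, DEFB4A (BNBD-4 on the array) a neutrophil beta-defensin, TCN1 the vitamin B12 binder of secondary granules, HBB beta-globin, and PTCRA the pre-T-cell receptor alpha chain of thymocytes. The rest of the set were C8H9orf152, CST7, GIMAP7, H2AC10, KRT4, LAG3, LY75, RASGRP1, TOX2, TRPV4 and UBD. The genes described by function were chosen after their values were seen.

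CATHL1, CATHL2, CATHL3, CATHL5 and CATHL6 lie in 1 stretch with CATHL4 and CAMP in the RefSeq gene table of the ARS-UCD2.0 assembly, between NME6 and CDC25A, and S100A8, S100A12 and S100A9 lie side by side in another place. Of the 6 nearest protein-coding genes around the cathelicidins, 5 were measured, and none had the 5 highest arrays of CATHL1. NME6, next to CAMP, lay between 7.63 and 8.34 in prednisolone animals and between 7.37 and 8.07 in controls. PLXNB1 shared 4 of the 5 arrays within a range under that of any cathelicidin, and CDC25A, next to CATHL5, was highest on C20 and P31. Of the 6 genes around the S100 genes, 3 were measured, and of the 6 around LTF all were, and none had these 5 arrays.

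**Figure D3:**
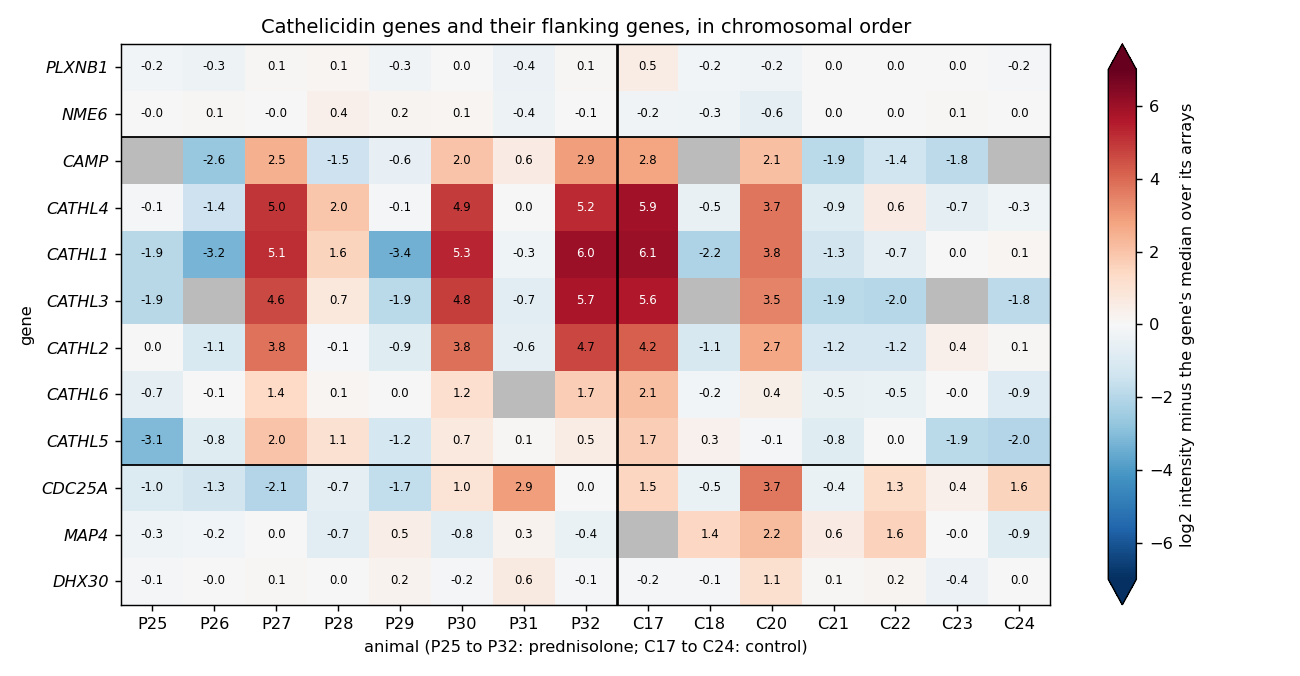
Log2 intensity minus each gene's median over its arrays for the 7 measured cathelicidin genes, between horizontal lines, and 5 measured flanking genes in the order of the RefSeq table, by animal (prednisolone left, controls right; grey for no value). The high values on P27, P30, P32, C17 and C20 appear in CAMP, CATHL4, CATHL1, CATHL3 and CATHL2 and not in NME6; C20 is also high for CDC25A, MAP4 and DHX30.

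Oral prednisolone given for 35 days was compared with no prednisolone to ask how it alters transcripts of muscle. None of the 9 genes passed the test between the groups (limma, adjusted p from 0.993 to 0.995), none had an unadjusted p below 0.05 by limma or by an exact Wilcoxon test, and the groups overlapped for all 9. Over all 20894 probes tested, 0% passed an adjusted p of 0.05, 3.35% had an unadjusted p below 0.05 by limma (699 probes), 610 had one by the exact Wilcoxon test, which called none either, and 0.278% had groups that did not overlap. The difference was above 0 for all 9 genes, against 52% of all probes, with a median of 0.47 on the log2 scale against 0.01 for all probes. Since 6 of the 9 share their 5 highest arrays, these are not separate observations.

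Among cathelicidins, CATHL1 averaged 5.96 ± 3.94 in prednisolone animals (SD, n = 8) and 5.64 ± 2.96 in controls (SD, n = 7), a difference of 0.31 with a 95% interval of -3.30 to 3.93. An interval this wide holds a change of many fold in either direction. The sign turned when any of C18, C21, P27, P30 or P32 was left out, down to -0.38 without P32, and the difference was 1.19 without C17. CATHL2 differed by 0.65 (-1.72 to 3.02), and by 0.15 without P32. CATHL3 differed by 0.95 (-3.09 to 4.98), by 0.26 without P32 and by 2.18 without C17. CATHL5 differed by 0.32 (-1.20 to 1.83) and CATHL6 by 0.47 (-0.55 to 1.496), the intervals covering 0 for each of the 5 genes.

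S100A9 had the largest difference of the 9 genes, 5.87 ± 1.26 in prednisolone animals (SD, n = 8) and 4.74 ± 1.40 in controls (SD, n = 7), or 1.12 on the log2 scale with a 95% interval of -0.24 to 2.49 (limma, unadjusted p = 0.0996, adjusted p = 0.993). Of the prednisolone animals, 7 of 8 lay above the control median. S100A8 differed by 0.77 (-0.59 to 2.14) with 6 of 7 prednisolone animals above the control median, and S100A12 by 0.36 (-0.33 to 1.05) with 7 of 8 above it. LTF differed by 0.24 (-0.97 to 1.44), with 4 of 8 above it, and by -0.011 without C21.

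Without C17, C20 and P31 the differences were larger: 2.18 for S100A9, 1.56 for S100A8, 0.89 for S100A12, 0.96 for CATHL6, 2.15 for CATHL1, 2.07 for CATHL2, 3.93 for CATHL3, 0.78 for CATHL5 and 0.40 for LTF. This comparison leaves out the 2 controls that were highest for CATHL1 and keeps the 3 prednisolone animals that were highest, and it leaves out the prednisolone animal lowest for S100A9 and S100A12. S100A9, S100A12, S100A8 and CATHL6 then had an unadjusted p below 0.05 by limma, a share of 4 in 9 genes against 1.69% of all probes that were higher with such a p. Leaving out these controls raises the difference of genes that follow CATHL1, so the shares do not compare like with like. P30 and P32, also high for thymocyte genes, were kept. None of the 9 passed the adjusted p (limma, lowest 0.48 for S100A9), and 1 of 20187 probes (0.00495%) did, that of PZP, named after its value was seen. The PZP probe was low, with a control mean of 1.67, and well above background on 1 of 8 prednisolone arrays.

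**Figure D4:**
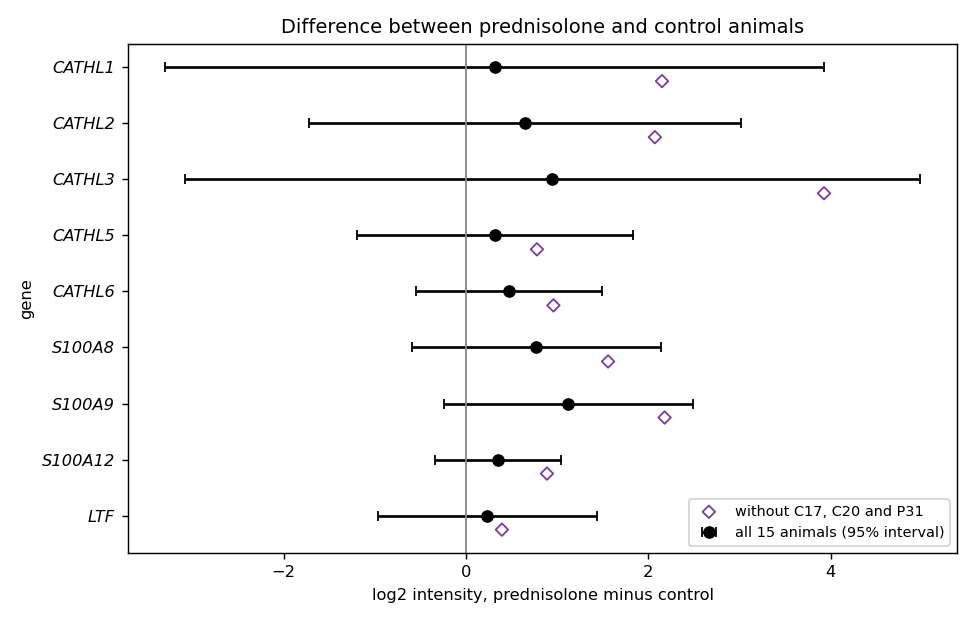
Difference in log2 intensity, prednisolone minus control, for the 9 genes with its 95% interval from limma (black, all 15 animals), and the same difference without C17, C20 and P31 (open diamonds). All intervals cover 0, and each diamond lies to the right of its black point.

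On P31 the value table has no entry for CATHL6 and S100A8, so the fit used 7 prednisolone animals for these genes. The scanner software did not find these spots but gave them signals well above background, of 29.2 and 34.4 for CATHL6 and 44.7 and 43.0 for S100A8 in linear intensity. On the scale used here these correspond to 4.76 for CATHL6 and 5.23 for S100A8, each below every prednisolone animal with a value. With these values included the difference was 0.32 for CATHL6 and 0.56 for S100A8. CATHL3 had no value on P26, C18 and C23, and its fit used 7 prednisolone animals and 5 controls.

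No further cathelicidin, granule or granulocyte gene passed the test. CATHL4, the precursor of indolicidin, differed by 0.81 (95% interval -1.96 to 3.58), with 8.88 on P27, 8.79 on P30, 9.12 on P32, 9.77 on C17 and 7.62 on C20, and at most 5.84 on the other arrays. CAMP differed by 0.53 (-2.02 to 3.07), with 7 prednisolone and 5 control values. Among 20 measured genes of neutrophil granules, 11 had a difference above 0 and 9 below it, with a median of 0.14. The mean of this list, from which the 9 genes are left out, ran from 4.66 to 5.88 over prednisolone animals and from 4.82 to 5.72 over controls. Its 5 highest arrays were those of CATHL1, though by a narrow margin, with P30 at 5.24 and P28, the next, at 5.23. Of its 20 genes, 4 shared at least 4 of the 5 highest arrays of CATHL1 (PGLYRP1, MPO, LCN2 and haptoglobin, HP), against 2.33% of the other probes tested. HP, which binds free haemoglobin and is also made by hepatocytes, differed by 1.22 (-0.27 to 2.70) and was highest on P26, at 6.95, and the adipokine resistin (RETN), also stored in granules, by 0.27 (-0.06 to 0.61). MPO, the myeloperoxidase of primary granules, was high on P31 and C20, at 7.19 and 8.11, as well as on P27, P30, P32 and C17.

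Several defining genes of mature neutrophils were not well above background. Of the 27 measured genes of neutrophil surface and signalling, 8 were well above background on no prednisolone array, among them the chemokine receptor CXCR1, the integrin chains ITGAM and ITGAX, the complement receptor C5AR1 and the chemokine CXCL8. Another 15 of the 27, many of them shared with other leukocytes, were well above background on all 8. The granule proteases CTSG and MMP8 were well above background on no prednisolone array either. In this list 16 genes had a difference above 0 and 11 below it, with a median of 0.05. NCF4, a subunit of the phagocyte oxidase, differed by -0.95 (-1.85 to -0.05, adjusted p = 0.993 by limma), and the receptor TREM1, which amplifies inflammatory signals, by -0.26 (-0.52 to 0.01). NCF4 was highest on C20 and P31, at 11.26 and 9.82, the arrays with the highest means of spermatid genes.

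The 9 measured transcription factors of granulocyte development had 6 differences above 0 and 3 below it, with a median of 0.03. Of these, CEBPB, a factor of emergency granulopoiesis, differed by -0.21 (-0.72 to 0.29), and GFI1, a repressor needed for neutrophil formation, by 0.29 (-0.19 to 0.76), though GFI1 and CEBPE, which drives secondary granule genes, were well above background on no prednisolone array. Among 10 measured beta-defensins and epithelial antimicrobial genes, 7 were above 0 and 3 below it, with a median of 0.17. EBD, an enteric beta-defensin by its accession, whose probe the array calls DEFB1, differed by -0.49 (-1.003 to 0.02). It was highest on C20, at 8.77, C17, at 8.64, and P31, at 8.58. BPIFB1, a secreted airway protein of the BPI fold, differed by 0.30 (-0.03 to 0.63). DEFB4A followed CATHL1, with 5.62 on P27, 6.88 on P30, 6.25 on P32, 7.48 on C17 and 4.69 on C20.

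Most other S100 genes did not share the arrays of CATHL1. Of 13 measured, 1 shared at least 4 of the 5 highest arrays with CATHL1, S100A7, an antimicrobial protein of squamous epithelium that reached 9.48 on P32. There were 8 differences above 0 and 5 below it, with a median of 0.04; S100B, a glial and fat cell protein, differed by 0.47 (-0.09 to 1.02), and S100Z by 0.36 (-0.11 to 0.82). The 5 tested genes of iron binding and storage had 3 differences above 0 and 2 below it, with a median of 0.10, at 0.24 for the ferritin light chain FTL (-0.27 to 0.76) and 0.97 for transferrin, TF (-1.498 to 3.44), which reached 10.01 on P26 and 10.00 on P28, the arrays with high hepatocyte transcripts. The 7 measured receptors of these proteins had 4 above 0 and 3 below it, with a median of 0.00388, at -0.36 for P2RX7 (-0.96 to 0.23), an ATP-gated channel, and -0.33 for LRP1 (-0.90 to 0.24), which takes up lactoferrin. Without C17, C20 and P31 no gene of the 8 pathway lists passed either. None of the genes of these lists passed the test by limma or the exact Wilcoxon test, and 1, NCF4, had an unadjusted p below 0.05 by limma (0.040).

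The 8 genes most like CATHL1 were sought among 10454 named genes with a value on every array, by Pearson's r over the 15 arrays. These were CATHL4 (r = 0.958), PGLYRP1 (0.956), the water channel AQP3 (0.850), the haematopoietic transcription factor NFE2 (0.848), the T-cell kinase ZAP70 (0.846), the T-cell receptor chains CD3G (0.842) and CD3E (0.831), and the ubiquitin-like protein UBD (0.837). The 15 points come from 1 tissue and 1 array design and fall into a high and a low set, so r mainly tells that the same arrays are high, and no p is given. With values centred within each group all 8 remained, and without C17 6 of the 8 remained, with r between 0.800 and 0.950 for the 8. Without C17, C20 and P31, 4 of the 8 remained (CATHL4, PGLYRP1, AQP3 and NFE2), with r between 0.782 and 0.947 for the 8, an alternative chosen after seeing the data.

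Globin and thymocyte transcripts were high on most of the same arrays, though not on all of them alike. HBB was at 8.48 on P27, 7.22 on P30, 6.78 on P32, 8.21 on C17 and 6.42 on C20, the 5 highest arrays, with C23 next at 6.29. The globins HBA and HBG were also highest on P27, C17, P30 and P32, but with C23 above C20. On C23 and C20, HBA was at 9.12 and 8.72, and HBG at 8.59 and 8.55. AHSP, another red cell gene, was highest on P28 and P29. DNTT, the terminal transferase of developing lymphocytes, was at 12.10 on P30, 11.31 on P32, 13.77 on C17 and 10.12 on C20, but at 1.61 on P27, where it was not above background. P27 was among the 5 highest arrays of all 9 genes except LTF. On P31, where spermatid transcripts were high, CATHL1 was at 4.51 and S100A9 was the lowest of all animals.

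**Figure D5:**
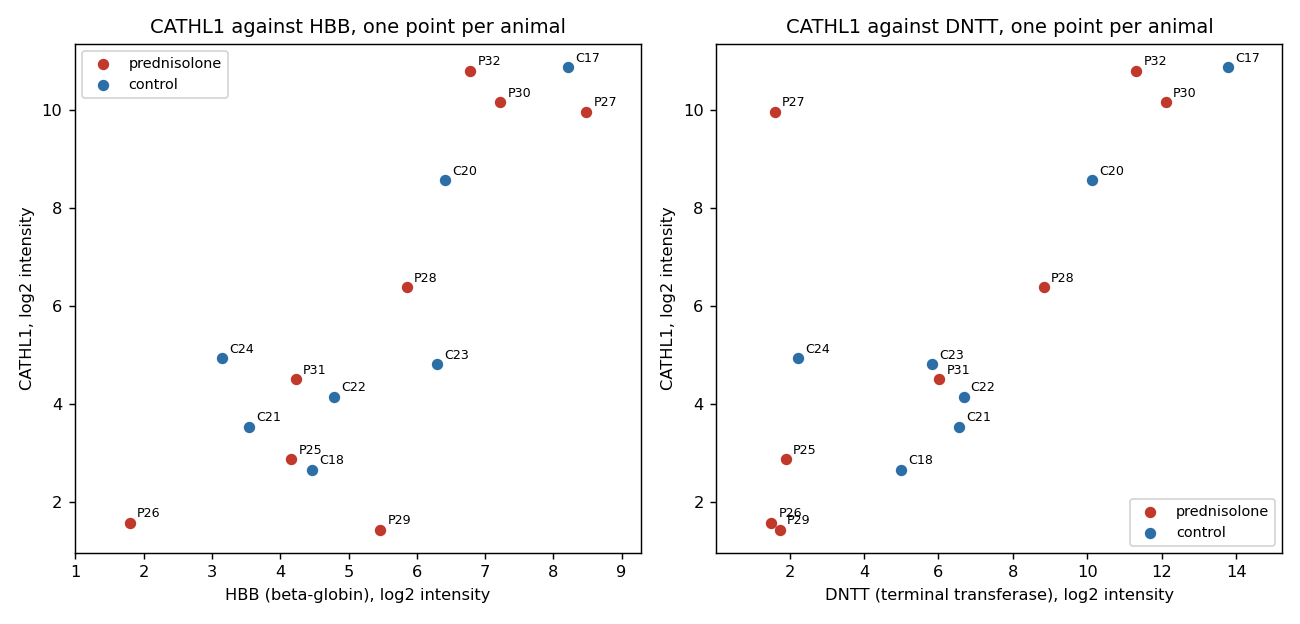
Log2 intensity of CATHL1 against that of HBB (left) and DNTT (right), 1 point per animal, prednisolone in red and control in blue. P27 has high CATHL1 and HBB with DNTT not above background, while the other 4 arrays with high CATHL1 are high for both HBB and DNTT.

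Over whole lists, the 9 measured of 14 red cell genes had means per array of 3.54 to 5.59 in prednisolone animals, highest on P27, and of 3.96 to 5.15 in controls, highest on C17, with ALAS2, GATA1 and SLC4A1 well above background on no prednisolone array. The 9 measured of 11 thymocyte genes had means of 3.60 to 8.33 in prednisolone animals and 4.12 to 9.47 in controls, with RAG1 well above background on no prednisolone array. The 8 measured of 12 bone marrow progenitor genes had means of 3.73 to 5.50 in prednisolone animals and 3.91 to 5.98 in controls, highest on P32 and C17, with CTSG and CEBPE not well above background on any prednisolone array. For the means of the red cell and the bone marrow progenitor lists the 5 highest arrays were those of CATHL1, and for the thymocyte list 4 of the 5 were. The margins were narrow, with P30 at 4.87 and P29 at 4.79 for red cells, and P27 at 5.27 and P31 at 5.19 for bone marrow. Gene by gene, all 9 thymocyte genes shared at least 4 of the 5 highest arrays with CATHL1. Of the red cell genes 3 of 8 tested did (HBA, HBB and HBG), and of the bone marrow genes 3 of 8 (MPO, MYB and TOP2A). P27 was not among the 5 highest arrays of MYB or TOP2A, and P31 was among those of MPO and TOP2A, at 7.19 and 8.47. The red cell gene EPB42 was highest on C20 and P31, at 7.12 and 5.61. The bone marrow list shares MPO, AZU1 and CTSG with the granule list.

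The 5 measured of 9 platelet genes had means of 3.66 to 4.37 in prednisolone animals, highest on P27, and 3.70 to 3.94 in controls, with PF4, PPBP and TUBB1 never well above background. The 13 monocyte and macrophage genes had means of 6.78 to 7.78 in prednisolone animals and 6.78 to 8.05 in controls, with CCR2 never well above background, and P30 was the lowest of the prednisolone animals. The 5 measured of 13 eosinophil, basophil and mast cell genes had means of 2.69 to 4.35 in prednisolone animals, lowest on P30, and 2.95 to 4.09 in controls, lowest on C17, with MS4A2 never well above background. The 10 measured of 14 squamous epithelium genes had means of 5.85 to 7.18 in prednisolone animals, highest on P32, and 5.59 to 6.52 in controls, with DSG3 never well above background. The 11 glandular genes had means of 4.61 to 5.21 in prednisolone animals and 3.74 to 5.46 in controls, with CDH1, CSN3 and LALBA never well above background. The 8 measured of 9 B and plasma cell genes had means of 4.82 to 5.24 in prednisolone animals and 4.81 to 5.46 in controls, with CD79B, MS4A1 and POU2AF1 never well above background. For this list 4 of the 5 highest arrays were those of CATHL1, by a narrow margin, with C20 at 5.112 and C18, the next, at 5.103. Of its 7 tested genes, 1 shared at least 4 of the 5 highest arrays of CATHL1. The 6 endothelial genes had means of 8.42 to 8.89 in prednisolone animals and 7.99 to 9.42 in controls, lowest on C17. The 6 adipocyte genes had means of 6.04 to 8.30 in prednisolone animals and 6.11 to 8.18 in controls, with LEP never well above background. The 8 spermatid genes had means of 3.23 to 10.58 in prednisolone animals and 5.45 to 11.26 in controls. The part of any of these cell types in the levels of the 9 genes was not tested.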

How the data were processed

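Per the series' design text, slides were scanned at a pair of sensitivities, and the signal was corrected for background and spatial trend by Feature Extraction. The deposited value table holds linear intensity per spot for all 15 arrays; R 2.11.1 is named in the submitters' processing notes, and how the arrays were scaled is not stated there. Per the file headers, the deposited scanner files of the 8 prednisolone arrays (Feature Extraction 9.5.1.1) give intensity and detection flags; those of controls were not used here, so detection, slide and scan day are known for prednisolone arrays only, and no fit with the slide as a block could be made. A probe counted as well above background where every spot carried that flag.

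Intensities were taken as log2, spots of a probe averaged, and each array shifted to a common 75th percentile over the 14324 probes with values on all arrays. Percentiles before this shift lay between 10.56 and 10.76, and between 72.1% and 87.4% of spots had a value. The 20894 probes with at least 3 values per group were fitted with limma 3.58.1 in R 4.3.3 (lmFit and eBayes), with Benjamini-Hochberg adjustment over all of them and a threshold of 0.05. The number of arrays limits the precision. The script was tested on simulated data.

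Names came from accessions, gene identifiers and descriptions, through the RefSeq table; 17667 probes were named. A gene of a list was represented by its brightest probe. The members, the 8 pathway lists and the 14 marker lists were chosen with earlier results of these data known. Genes named in the text are the members, the 8 genes with the highest correlation with CATHL1 (well above background on at least 4 prednisolone arrays), and the 2 genes of each pathway list with the smallest p; others named are marker or neighbour genes, or are said to have been chosen after their values were seen. List means per array set empty cells at the lowest value of the array. Groups follow the labels, and animals count as replicates; no per-sample column was left out.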

Additional observations from a re-analysis of the deposited data

How the results depend on the processing

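The differences were recomputed under 25 alternatives, for all 9 genes in each but those that restrict the probes, which hold 6 genes (values on all arrays) and 4 (well above background): values as deposited, quantile normalization, equal medians, probes with values on all arrays, empty cells at the array's lowest value, probes well above background on all prednisolone arrays, array weights, a trended robust fit, an exact Wilcoxon test, each animal left out in turn, and C17, C20 and P31 left out together. No gene passed under any alternative that tested it (adjusted p from 0.48 to 1), and the count of member probes called was 0 throughout, also with each animal left out (0 to 0). Of 219 values, 212 kept the sign. The exceptions were CATHL6 at -0.13 with empty cells at the array's lowest value, which sets P31 to that floor, and the values with 1 animal left out of CATHL1 (-0.38 to 1.19) and LTF (-0.011 to 0.51). The scanner signal for P31, an alternative chosen after seeing the data and counted here, kept the sign. The exact Wilcoxon test, the trended robust fit and the settings that restrict the probes leave a gene's difference unchanged. So does filling empty cells for genes with a value on every array. These signs, counted among the 212, could not turn. Over all probes, the count called was 0 in each setting except 1 without C17, C20 and P31 (PZP), and 0 to 1 with each animal left out (1 without C23, ZNF696, and 1 without P31, PZP; names chosen after their values were seen). Both probes were low in controls, with means of 1.67 for PZP and 2.40 for ZNF696. Of 8 prednisolone arrays, PZP was well above background on 1 and ZNF696 on 6. With array weights 1357 of 20894 probes had an unadjusted p below 0.05 by limma, against 699 in the main fit. So had 3 of the 9 genes (S100A9, S100A12 and S100A8). Without C17, 2 of the 9 genes (S100A9 and S100A8) and 740 of 20794 probes had one. Without P31, 1 of the 9 genes (S100A9) and 1470 of 20766 probes did. Without C17, C20 and P31, 4 of the 9 genes and 1262 of 20187 probes did.

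With 1 animal left out, CATHL2 ran from 0.15 to 1.25, CATHL3 from 0.26 to 2.18, CATHL5 from 0.01 to 0.75, CATHL6 from 0.28 to 0.82, S100A8 from 0.54 to 1.25, S100A9 from 0.92 to 1.53 and S100A12 from 0.21 to 0.56. With array weights S100A9 was at 1.64, CATHL1 at 1.23 and CATHL3 at 2.63. Correlations of the members with CATHL1 were not run, since the arrays fall into separate sets. The mean of all probes of a gene was not run, since each member has 1 probe. No paired analysis was possible because the animal numbers are not shared between the groups. With low signal, CATHL2 and CATHL3 have no firm level on most prednisolone arrays.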
